A study of Mus musculus with 6 samples.

Results

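The genes described here are 10 transcription factors that direct the formation of the heart and remain active in adult heart muscle: Hand1, Hand2, Gata4, Gata6, Nkx2-5, Tbx5, Tbx20, Mef2a, Mef2c and Mef2d. They were chosen by name, and every probe set that the platform's probe-to-gene table assigns to one of them was taken, which gave 30 probe sets of the 45101 on the array. The left ventricles came from 6 male C57BL/6 mice, 6 months old, and in all of them the diet had been rich in fat for 16 weeks. In 3 of the mice the agent was placebo and in 3 it was Lira, a name the labels do not spell out. No transgene or other allele is named for either group, and the design text speaks of 10 mice, of which those beyond the 6 were not analysed here. Lean mice were not analysed here, so each value compares Lira with placebo within diet-fed animals. In the order given above, the genes have the Entrez IDs 15110, 15111, 14463, 14465, 18091, 21388, 57246, 17258, 17260 and 17261.

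These factors belong to a few families that act on the same cardiac genes, often as complexes on neighbouring sites. GATA4 and GATA6 are zinc finger proteins, NKX2-5 is a homeodomain protein, TBX5 and TBX20 carry the T-box, HAND1 and HAND2 are basic helix-loop-helix proteins, and the MEF2 proteins carry a MADS box. In the embryo HAND1 and HAND2 pattern the ventricles, TBX5 and NKX2-5 also shape the chambers and the conduction system, and in the adult GATA4 and the MEF2 proteins drive the growth response of muscle cells to load. In adult heart GATA6, HAND2, TBX20 and the MEF2 proteins are also made by cells other than muscle cells, such as endothelial, smooth muscle, epicardial or fibroblast cells. In whole tissue, fewer cells of a type cannot be told apart from less RNA per cell.

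Promoter sequence from RefSeq (mouse assembly GRCm38.p6) was at hand for 6 of the 10 genes, with 8 entries in all, each of 300 bases that run from 250 bases before the transcription start to 50 bases after it. Of these, 2 are shown: that of Hand2, the gene with the smallest p of the 10, and that of Mef2a, whose level hardly differed between the groups. The Hand2 promoter lies at chr8:57320733-57321032 on the plus strand, and its capitals mark the letters GATAA, the core that GATA proteins read, or their reverse complement TTATC. The Mef2a promoter lies at chr7:67372809-67373108 on the minus strand, and its capitals mark the letters CTA and TAG with any 4 bases between them. This MEF2 pattern is looser than the core that MEF2 proteins read, because it takes any base in the middle. Both are written 5′ to 3′ on the strand of the gene.
Hand2: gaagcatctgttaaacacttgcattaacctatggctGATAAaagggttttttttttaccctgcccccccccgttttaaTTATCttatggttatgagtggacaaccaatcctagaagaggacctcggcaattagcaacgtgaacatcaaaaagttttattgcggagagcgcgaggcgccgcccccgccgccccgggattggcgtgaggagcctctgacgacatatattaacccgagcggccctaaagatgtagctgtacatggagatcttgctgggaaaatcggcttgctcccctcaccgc
Mef2a: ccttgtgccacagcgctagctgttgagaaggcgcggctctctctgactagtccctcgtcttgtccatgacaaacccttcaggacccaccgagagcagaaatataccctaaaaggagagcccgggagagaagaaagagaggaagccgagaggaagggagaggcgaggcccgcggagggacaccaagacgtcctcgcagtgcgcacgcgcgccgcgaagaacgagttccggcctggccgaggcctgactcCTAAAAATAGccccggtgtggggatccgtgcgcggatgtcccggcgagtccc
The Hand2 promoter held GATAA on its own strand at -214 to -210 and TTATC at -172 to -168 from the start. The Mef2a promoter held 1 match to the MEF2 pattern, at -2 to 8. With both strands searched, GATAA stood in 25.4% and the loose MEF2 pattern in 3.69% of the 32851 mouse promoters of this length, so the first is common and the second is not. Of the 8 member promoters 2 held GATAA, those of Hand2 and 1 of the Mef2c entries, and 1 held the MEF2 pattern. The T-box core GGTGTG was in 2 of the 8 (Mef2a and Mef2c) and in 19.0% of all promoters, and the NKX core CACTTNA was in 0 of the 8 and in 11.5% of all. The E-box CANNTG, which basic helix-loop-helix proteins read, was in 4 of the 8 and in 72.3% of all. A match describes letters in these windows and says nothing of binding.

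The deposited arrays all have the same 2% trimmed mean signal, while their medians ran from 28.6 to 39.6. Signals are in arbitrary linear units of fluorescence, and the number of arrays limits their precision. All 9 cardiomyocyte markers looked up were bright on every array, the lowest at 6587 signal units. One protocol field names blood as the source of RNA, but the 3 red cell genes with a named probe set summed to at most 110.6 units on any array. Of 5 atrial markers the summed signal was 2787 to 3218 with placebo and 1618 to 2268 with Lira. Most of that sum was Nppa, which ventricle also makes (2610 to 3037 units with placebo and 1386 to 2142 with Lira). The atrial light chain Myl7 was below the lowest signal tested. Of the 4 tested atrial markers 1 was above 0 and 3 below. Myl4 had a log2 difference of 0.27 ± 0.17 (SE), and Sln, Bmp10 and Nppa had -0.13 ± 0.40, -0.61 ± 0.59 and -0.67 ± 0.13. Summed signals of fibroblast markers (6 of 6 measured, 9679 to 10607 units with placebo and 10660 to 12711 with Lira), of smooth muscle markers (4 of 4, 1455 to 1707 and 1824 to 3701) and of leukocyte markers (4 of 5, 699.7 to 861.6 and 862.0 to 1006) did not overlap and were higher with Lira. The sums overlapped without the gene of highest signal in each list. With placebo and with Lira they were 2812 to 3800 and 3283 to 4005 units without Dcn. Without Acta2 they were 316.8 to 380.9 and 306.0 to 434.5, and without C1qa 192.7 to 257.5 and 227.1 to 310.7. Bright genes dominate such sums, so this does not show that 1 gene alone differed. All 3 tested leukocyte markers were above 0, and Ptprc did not overlap either (92.9 to 103.7 units with placebo and 106.3 to 153.1 with Lira). Of the 6 fibroblast markers 4 were above 0 and 2 below. Dcn, Pdgfra, Tcf21 and Lum had log2 differences of 0.23, 0.26, 0.18 and 0.12, and Col1a1 and Col1a2 had -0.02 and -0.13. Of the 3 tested smooth muscle markers, Acta2 and Myh11 had 0.75 and 0.16, and Tagln had -0.02. Sums of endothelial, epicardial, fat cell, skeletal muscle, red cell and sympathetic nerve markers overlapped. Only 2 of 4 fat cell and 3 of 6 red cell markers had a probe set, 1 of each below the lowest signal tested. Of the 4 skeletal muscle markers 3 were below it. Overlap of these dim sums therefore says little about the amount of fat, red or skeletal muscle cells.

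Of the 10 factors Hand2 had the largest difference, with a level 1.69-fold lower with Lira on its brightest probe set. Its groups did not overlap, while those of the other 9 did. Over all tested genes 11.1% had groups that did not overlap. On the brightest probe set of each gene, the log2 differences of the other factors, Lira minus placebo, lay between -0.29 for Gata6 and 0.30 for Hand1. No factor passed an adjusted p of 0.05 in limma, Hand2 included (adjusted p = 0.27), and 2 of 31526 tested probe sets passed, or 0.00634%. Differences were computed on log2(signal + 16), which understates the change of dim probe sets. Of the 30 member probe sets 28 were bright enough to be tested, with a mean over all arrays of at least 15.9 units, and each of the 10 genes had at least 1 of them. At an unadjusted p under 0.05 there were 2 member probe sets of 28, both lower with Lira, 1 of Hand2 and 1 of Gata6, where 5.33% of all tested probe sets passed and 2.92% passed and were lower. By the brightest probe set 6 factors were above 0 and 4 below, with a median of 0.04, against a median of 0.01 over all genes. Each array stood for a separate mouse, so the p-values measure the spread between mice.

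**Figure D1:**
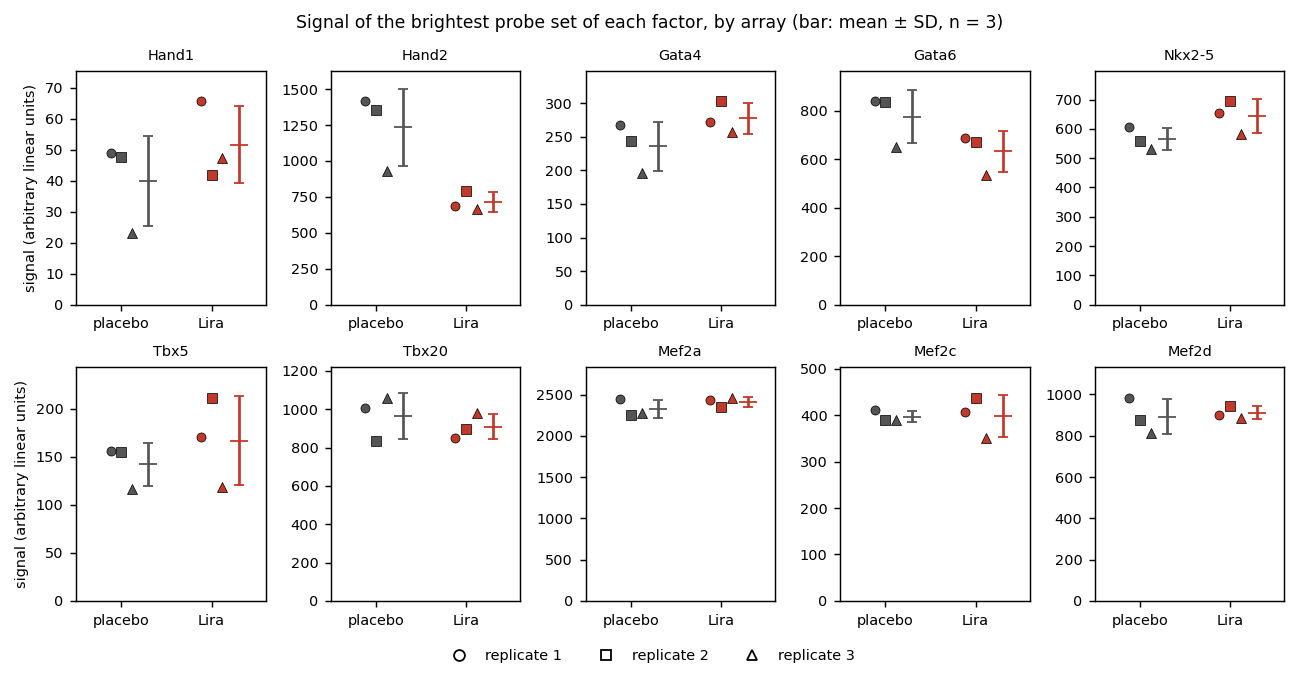
Signal of the brightest probe set of each factor in arbitrary linear units, with 1 point per array and the mean ± SD of 3 arrays beside it. The Hand2 points of Lira (at most 791 units) lie below all of placebo (at least 929), and the groups of the other 9 factors overlap. Of all tested genes 11.1% had groups that did not overlap.

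Hand2 encodes a factor needed for the right ventricle and for sympathetic neurons in the embryo. Its brightest probe set (1436041_at) measured 1416, 1356 and 929 units in placebo replicates 1, 2 and 3. With Lira it measured 686, 791 and 666 units. The groups did not overlap, and the 3 Lira arrays were close together while placebo replicate 3 lay well under the other placebo arrays. The means were 1234 ± 266 and 714 ± 67.3 units (SD, n = 3 per group). The log2 difference was -0.76 ± 0.15 (SE), a level 1.69-fold lower with Lira, with a 95% interval from 1.36-fold to 2.10-fold. In limma the unadjusted p was 1.7e-04, rank 20 of the 31526 probe sets tested, and the adjusted p was 0.27. Without placebo replicate 3 the log2 difference was -0.94 and the adjusted p 0.015 in limma, and over all 17 alternatives the adjusted p ran from 0.015 to 0.96, with 0.96 in the fit without a variance trend. Beside this difference, the summed markers of sympathetic nerve, which also expresses Hand2, were 309.2 to 358.5 units with placebo and 271.9 to 363.0 with Lira. Those of epicardium were 96.3 to 159.4 and 58.6 to 142.0, with Upk3b and Msln below the lowest signal tested. Dcn, Acta2 and C1qa, the markers of highest signal in their lists, were higher in all Lira arrays than in all placebo arrays. The sums of the other fibroblast, smooth muscle and leukocyte markers overlapped. Above 0 were 4 of 6 fibroblast, 2 of 3 tested smooth muscle and 3 of 3 tested leukocyte markers. Dcn, Acta2 and C1qa were not called, with adjusted p of 0.91, 0.83 and 0.92 in limma. Acta2 measured 3377 units in Lira replicate 1, against 1579 and 1518 in Lira replicates 2 and 3. The part in the Hand2 values of the cells that Dcn, Acta2 and C1qa mark was not tested.

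The other Hand2 probe sets did not show the same picture. The second one (1422221_at) measured 64.9, 67.6 and 66.7 units with placebo and 30.7, 90.5 and 82.5 with Lira. Its placebo values were nearly equal, and the Lira values lay on both sides of them. The log2 difference was -0.06 ± 0.28, with a 95% interval from -0.67 to 0.55, which overlaps the interval of the brightest probe set (-1.07 to -0.44). The third (1443854_at) was too dim to test, at 22.9, 7.39 and 0.852 units with placebo and 3.56, 5.49 and 2.69 with Lira. The lower level of Hand2 therefore rests on 1 of its 3 probe sets.

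**Figure D2:**
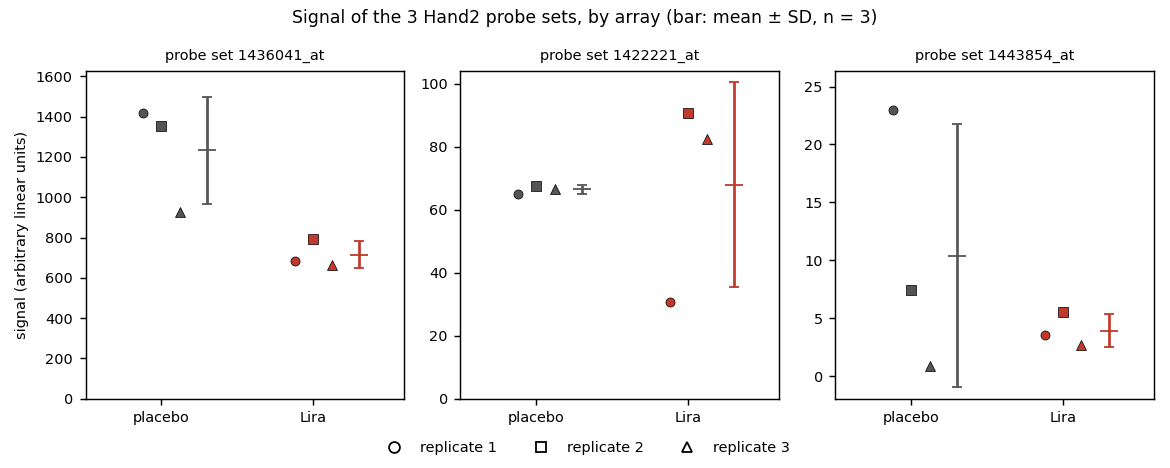
Signal of the 3 Hand2 probe sets in arbitrary linear units, 1 point per array with the mean ± SD of 3 arrays beside it, each panel on its own scale. The groups are apart on probe set 1436041_at and overlap on the other two, of which 1443854_at has no array above 22.9 units.

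**Figure D3:**
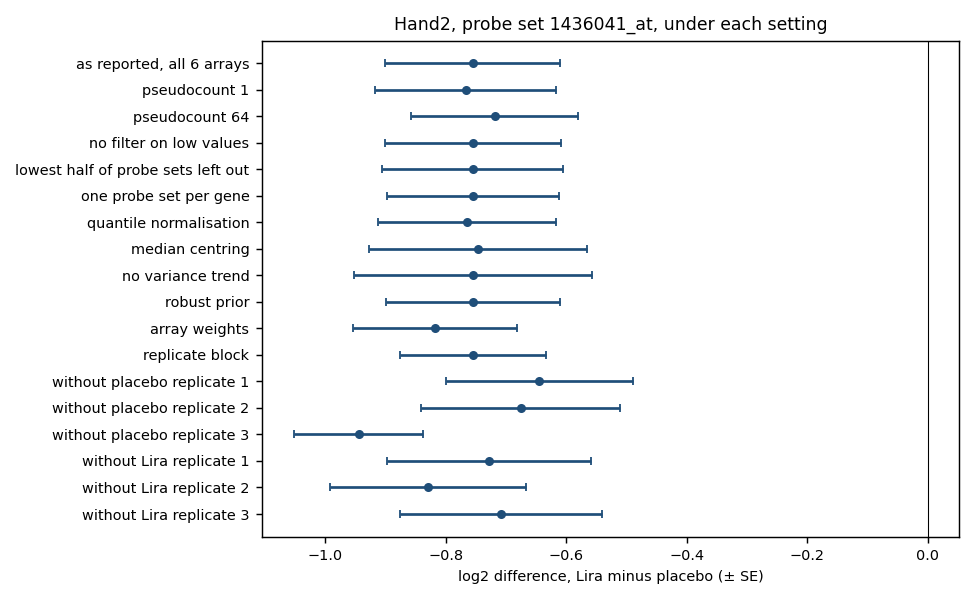
Log2 difference of Hand2 (probe set 1436041_at), Lira minus placebo, ± SE, as reported and under each of 17 alternatives. All values lie below 0, from -0.94 without placebo replicate 3 to -0.64 without placebo replicate 1.

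Hand1, the relative of Hand2 that acts mainly in the left ventricle of the embryo, was dim. Its tested probe set measured 48.8, 47.6 and 23.2 units with placebo and 65.7, 41.9 and 47.3 with Lira. The groups overlapped, and the lowest value was again that of placebo replicate 3. This gave a log2 difference of 0.30 ± 0.27 with a 95% interval from -0.29 to 0.88. A second probe set was too dim to test and held 5.43 to 19.3 units with Lira and 1.47 to 47.8 with placebo.

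The GATA factors lay on opposite sides of 0. Gata4, which switches on contractile and natriuretic peptide genes, measured 268, 244 and 197 units with placebo and 272, 303 and 257 with Lira. All Lira arrays but replicate 3 were above all placebo arrays, and the groups overlapped. On the log2 scale Lira minus placebo was 0.23 ± 0.14, with a 95% interval from -0.08 to 0.54. Gata6, which shares many target sites with Gata4, measured 840, 838 and 652 units with placebo and 689, 672 and 536 with Lira. Placebo replicate 3 fell among the Lira arrays, so that these groups overlapped too. The difference was -0.29 ± 0.13, a level 1.22-fold lower with Lira, at an unadjusted p of 0.047 and an adjusted p of 0.92 in limma. It ran from -0.18 without Lira replicate 3 (unadjusted p = 0.22, adjusted p = 0.91 in limma) to -0.41 without placebo replicate 3, and was -0.23 without placebo replicate 1 and without placebo replicate 2. The second Gata4 probe set had a difference of 0.33 ± 0.28, and the other 2 of Gata6 had -0.07 ± 0.14 and -0.15 ± 0.28. Each gene's probe sets thus had 1 sign. The difference between the 2 GATA genes was not tested.

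Nkx2-5, the homeodomain factor that marks heart muscle, has 1 probe set on the array. It measured 608, 557 and 533 units with placebo and 654, 695 and 582 with Lira. The Lira arrays were higher except that replicate 3 lay below placebo replicate 1. Lira minus placebo was 0.18 ± 0.11 on the log2 scale, with a 95% interval from -0.06 to 0.42.

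The T-box factors did not differ beyond their spread. Tbx5, which works with NKX2-5 and GATA4, measured 156, 155 and 116 units with placebo and 170, 212 and 119 with Lira. In both groups replicate 3 was the low array. Log2 differences were 0.19 ± 0.20 on this probe set and 0.12 ± 0.36 on the dimmer one. Single arrays moved the first of these from 0.01 without Lira replicate 2 to 0.39 without Lira replicate 3. Tbx20, which keeps adult heart muscle cells in their state, measured 1009, 832 and 1061 units with placebo and 850, 895 and 979 with Lira. The Lira values fell within the range of placebo. The difference was -0.08 ± 0.11 with a 95% interval from -0.33 to 0.16, and its dimmer probe sets gave -0.33 ± 0.24 and 0.16 ± 0.42.

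The MEF2 factors, which bind the promoters of contractile and metabolic genes and are held back by class IIa histone deacetylases, had differences close to 0 on their brightest probe sets. Mef2a measured 2450, 2254 and 2280 units with placebo and 2433, 2348 and 2465 with Lira on its brightest probe set. All 6 values lay close together. The log2 difference was 0.05 ± 0.08, with a 95% interval from -0.13 to 0.24, or at most 1.18-fold higher and 1.09-fold lower. Of its 6 tested probe sets 4 were above 0 and 2 below, from -0.06 ± 0.11 to 0.58 ± 0.36, the last on a dim probe set with 4.25 to 39.0 units.

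Mef2c measured 410, 390 and 390 units with placebo and 406, 438 and 350 with Lira. Its means were 396 ± 11.7 and 398 ± 44.5 units, and its log2 difference had an SE of 0.12 and a 95% interval from -0.26 to 0.26. The wider spread was on the Lira side. Among its 4 other probe sets 1421028_a_at was lower in all Lira arrays, with 82.1, 77.0 and 89.3 units for placebo and 71.2, 69.1 and 45.4 for Lira. Its difference was -0.36 ± 0.20 at an unadjusted p of 0.10 and an adjusted p of 0.93 in limma. The remaining 3 gave -0.26 ± 0.21, -0.12 ± 0.20 and 0.13 ± 0.16, so the sign varied between Mef2c probe sets.

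Mef2d measured 985, 878 and 815 units with placebo and 899, 946 and 886 with Lira. The Lira values lay inside the placebo range. The difference was 0.03 ± 0.10, and its other probe sets gave 0.17 ± 0.16 and 0.11 ± 0.20.

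**Figure D4:**
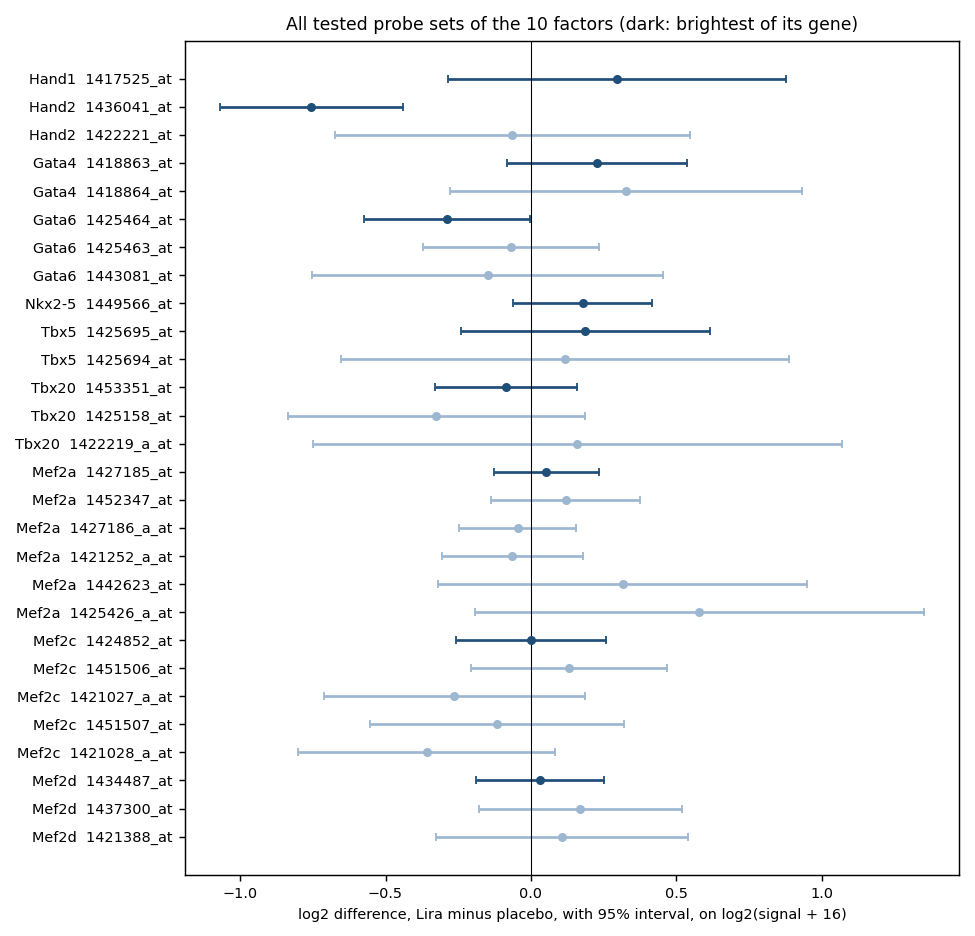
Log2 difference, Lira minus placebo, with its 95% interval for each of the 28 tested probe sets of the 10 factors, with the brightest of each gene in dark blue. The interval of Hand2 1436041_at lies furthest below 0, that of Gata6 1425464_at ends just below 0, and all others span 0.

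The SE of the log2 difference ran from 0.084 for Mef2a to 0.27 for Hand1 on the brightest probe sets, and reached 0.42 on a dim Tbx20 probe set. For 7 of the 10 factors the 95% interval lay within a change of 1.5-fold in either direction: Gata4, Gata6, Nkx2-5, Tbx20, Mef2a, Mef2c and Mef2d. For Hand1 and Tbx5 it did not, so a change of that size in these 2 could not be told from none with 3 arrays a group. Of the 8 factors with more than 1 tested probe set 5 had 1 sign on all of them. Groups that did not overlap were seen on 2 of the 28 probe sets, 1 of Hand2 and 1 of Mef2c, both lower with Lira, while 10.9% of all tested probe sets had such groups and 5.41% were lower.

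Replicate 3 of each group, numbers not taken here to pair the mice, had a low level of most of these factors. Placebo replicate 3 was the lowest placebo array for 8 of the 10 on their brightest probe sets, all but Tbx20 and Mef2a, where 34.6% of all tested genes were lowest on it. For 5 of the 10 it was the lowest of all 6 arrays, against 19.5% of all tested genes. Lira replicate 3 was the lowest Lira array for 7 of the 10, against 38.2% of all tested genes, and the lowest of all 6 for 3. Placebo replicate 1 was the highest placebo array for 9 of the 10. The differences of Hand2 and Gata6 became larger without placebo replicate 3 (-0.94 and -0.41), while those of Hand1, Gata4, Nkx2-5 and Tbx5 became smaller (0.06, 0.11, 0.14 and 0.06). Without Lira replicate 3 they were -0.71 for Hand2, -0.18 for Gata6, 0.34 for Hand1, 0.28 for Gata4 and 0.39 for Tbx5.

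The partners of these factors, from cofactors to chromatin remodellers, had no called member. Of 21 tested genes 11 were above 0 and 10 below, with a median of 0.004, and 0 passed an adjusted p of 0.05 in limma, where 0.0139% of all genes did. At an unadjusted p under 0.05 there was 1, where 5.46% of all genes passed. This was Myocd, which encodes myocardin, the coactivator of serum response factor. It measured 300.5, 292.4 and 309.9 units with placebo and 278.5, 230.8 and 225.3 with Lira, a log2 difference of -0.29 ± 0.13 with an adjusted p of 0.92 in limma. Its groups did not overlap on this probe set or on its second one, which gave 62.8, 73.9 and 69.3 units against 51.8, 48.4 and 58.0. Nfatc4, a calcineurin-controlled factor that binds GATA4, had a difference of 0.41 ± 0.22 on its brightest probe set. The groups overlapped there, with an adjusted p of 0.92 in limma, so its sign was not settled. A dimmer Nfatc4 probe set gave -1.24 ± 0.36, from 27.2, 24.8 and 58.4 units with placebo and 3.92, 8.01 and 4.81 with Lira. Its Lira values all lay under 15.9 units, the lowest mean tested, so this probe set cannot decide the sign.

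Of the genes for enzymes and other proteins that control MEF2 activity, 15 were tested, 10 above and 5 below 0. Their median was 0.02, and 0 passed an adjusted p of 0.05 in limma. Over all genes 0.0139% passed. At an unadjusted p under 0.05 there were 2, both lower with Lira, where 5.46% of all genes passed. Sik1, a kinase that phosphorylates class IIa deacetylases, had a log2 difference of -0.54 ± 0.20 and Camk2d, the main calcium/calmodulin-dependent kinase of heart, one of -0.31 ± 0.13, both with overlapping groups. Their adjusted p were 0.89 and 0.92 in limma. The second Sik1 probe set, with 23.2 to 32.9 units, gave 0.02 ± 0.28. The deacetylase genes Hdac4, Hdac5, Hdac7 and Hdac9 differed by -0.02 ± 0.14, 0.19 ± 0.13, -0.04 ± 0.19 and 0.22 ± 0.19.

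Of 21 other transcription factors of the developing heart 18 could be tested. Of these 8 were above and 10 below 0, with a median of -0.05, and 0 passed, also at an unadjusted p under 0.05 in limma. Prox1, needed for sarcomere assembly and lymphatic vessels, had the smallest p, with a difference of -0.56 ± 0.26 and an adjusted p of 0.92 in limma, and Irx3, a factor of the conduction system, had -0.25 ± 0.15. Both had overlapping groups.

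Genes that these factors are known to switch on were looked at last. Of 25 tested targets 14 were above and 11 below 0, the median was 0.04, and 7 had an unadjusted p under 0.05 in limma, 3 higher and 4 lower, where 5.46% of all genes did. In 8 of the 25 the groups did not overlap, where 11.1% of all genes had such groups. None passed an adjusted p of 0.05 in this fit (0 of 25). The smallest p were those of Acta1, the skeletal alpha-actin, with a log2 difference of -0.90 ± 0.13 (adjusted p = 0.072 in limma), and of Nppa, which encodes atrial natriuretic peptide, with -0.67 ± 0.13 (adjusted p = 0.33). With 1 probe set per gene, and with array weights, 1 target passed. The targets were listed with earlier results of these data known, so their count is not independent of those results. They did not move one way, and the contractile targets Myh6, Actc1 and Tnnt2 differed by 0.11 ± 0.09, 0.10 ± 0.11 and 0.11 ± 0.09.

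**Figure D5:**
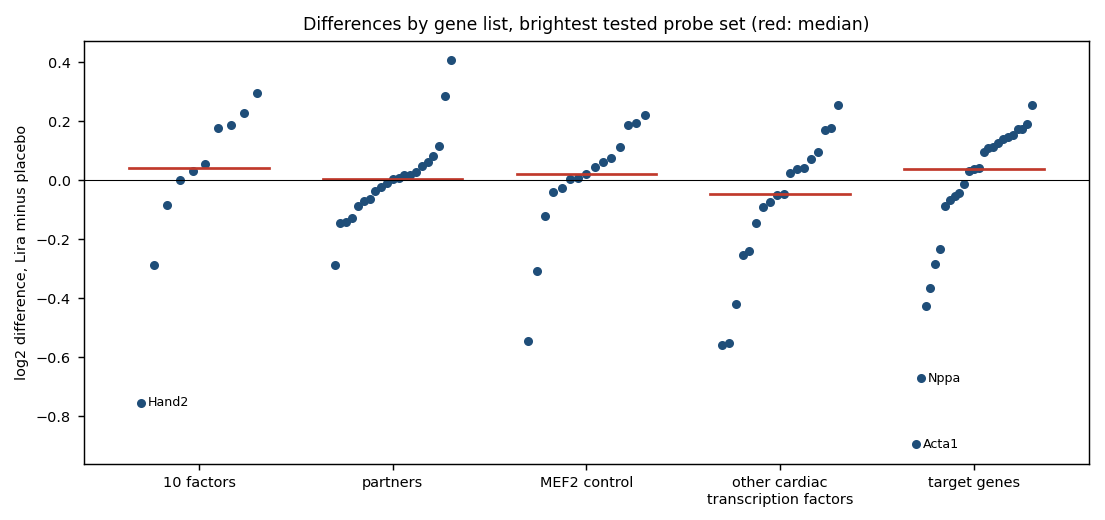
Log2 difference, Lira minus placebo, of the brightest tested probe set of each gene in the 10 factors and the 4 related lists, with 1 point per gene in ascending order and the list's median in red. The medians lie between -0.05 and 0.04, and Hand2, Acta1 and Nppa are the named points below -0.6.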

How the data were processed

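Biotin-labelled total RNA of 6 left ventricles was hybridised to Affymetrix arrays, 1 per mouse. Each deposited value is a signal intensity on a linear scale. Per the submitters' processing notes, the tool was Affymetrix Expression Console. Its version and its way of summarising probes were not given in these sources, and no detection calls were used. Because each array has the same trimmed mean, changes are relative to other genes.

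The 64 control probe sets were left out, as were the 30% of probe sets with the lowest mean over all arrays, which left 31526. Lira (n = 3) was compared with placebo (n = 3) on log2(signal + 16) with limma 3.58.1 in R 4.3.3 (variance trend, two-sided, Benjamini-Hochberg over all tested probe sets, called at 0.05). Every probe set of the members was reported. Other genes were represented by the brightest of their single-gene probe sets, and of each of the 4 related lists the 2 genes with the smallest p were named. Further genes were added after their values were seen (Myl7, Myl4, Sln, Bmp10, Dcn, Pdgfra, Tcf21, Lum, Acta2, Myh11, C1qa, Ptprc, Col1a1, Col1a2, Tagln, Upk3b, Msln, the Hdac genes, Myh6, Actc1 and Tnnt2). Symbols were brought up to date by gene ID from RefSeq (99.42% of 34958 single-gene probe sets matched). The members and lists were chosen with earlier results of these data known. Same-numbered mice of the 2 groups did not deviate together (correlations of -0.03, 0.05 and -0.10), and the main fit did not pair them. Such correlations cannot exclude that same-numbered mice were handled together. On 10 simulated data sets of this comparison over 31526 probe sets, 200 of them changed, the fit called 63.8% of 2-fold and 26.6% of 1.5-fold changes, and 4.84% of calls were false. The simulated noise was normal, and its SD was set by the fitted variance trend alone. It had no further scatter of the variance between probe sets, so these rates may be too favourable for the real arrays. Alternatives were other pseudocounts and filters, 1 probe set per gene, quantile normalisation, median centring, no trend in the variance, array weights, a robust prior, a replicate block and each array left out.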

Additional observations from a re-analysis of the deposited data

How the results depend on the processing

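No member was called under any of the 11 alternatives that keep all arrays. The count of called member probe sets was 0 to 1 with single arrays left out, the 1 being Hand2 without placebo replicate 3. Its log2 difference stayed below 0 in all 17 alternatives, and with the replicate number as a block 0 members were called, the adjusted p of Hand2 being 0.19 in limma. Members at an unadjusted p under 0.05 numbered 1 with a pseudocount of 1, with a stricter filter on low values, with quantile normalisation, with median centring and without the variance trend, and 1 to 3 with single arrays left out. Called targets numbered 1 with 1 probe set per gene and with array weights. The sign of Mef2c turned with median centring (0.0088) and array weights (0.0044), and its difference ran from -0.070 to 0.085 with single arrays left out, as that of Mef2d did from -0.031 to 0.10. The cause was not tested. Dim signals limit Hand1 and the lesser probe sets most.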
